A study of Mus musculus with 6 samples.

Results

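The renin-angiotensin system genes described here are Ren1, Agt, Ace, Cma1, Agtr1a, Agtr1b, Mas1, Atp6ap2 and Enpep, taken as the non-control probes of a mouse expression array that carry one of these 9 names. Of the 27745 names on the array these are 9, with 15 of its 41174 probes, and each probe was treated separately. The study compared the left kidney behind a ureter that had been tied completely (ligated) with the right kidney of each animal, which was not tied off (contralateral), which served as the internal control for the fibrosis that ureteral obstruction causes. Both kidneys of 3 CD-1 mice, numbered 495, 485 and 512 in the labels, were hybridised to 6 single-colour Agilent arrays, 1 per kidney. CD-1 mice are outbred and differ genetically from each other. The contralateral kidney belongs to an operated animal, so no kidney of an unoperated mouse stands in the comparison. Age, sex and the time from ligation to sampling are not given in the sources used here. The labels give the tissue as kidney and the cell type as primary cells. All 10 proximal tubule markers and all 8 podocyte markers examined were above background on all 6 arrays.

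Renin, an aspartic protease released by juxtaglomerular cells of the afferent arteriole, cleaves angiotensinogen to angiotensin I. Angiotensin-converting enzyme, on endothelium and on the brush border of the proximal tubule, turns this into angiotensin II, which acts mainly through the AT1 receptor to constrict vessels and retain salt. A counterbalancing arm uses shorter angiotensin peptides that signal through the Mas receptor, and aminopeptidases on the tubule surface degrade angiotensin II further. In the kidney this system controls glomerular blood flow and sodium handling, and its blockade is a standard treatment of fibrosing kidney disease.

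The probes decide what each value refers to. The sequences below are those of probes on which the results turn, as the scanner files give them, 5′ to 3′, and each lies within coding sequence except for the last bases of the first. The first is annotated to transcripts of both Ren1 and its tandem copy Ren2, and the capitals mark the renin stop codon. The second is annotated to Ren1 transcripts alone. In the mm8 build they lie at chr1:135187628-135187687 and chr1:135181736-135181795 on the plus strand.
Ren1 A_51_P316661: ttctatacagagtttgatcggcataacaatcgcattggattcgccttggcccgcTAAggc
Ren1 A_52_P544060: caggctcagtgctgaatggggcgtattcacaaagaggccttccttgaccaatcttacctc
Ace A_52_P72297: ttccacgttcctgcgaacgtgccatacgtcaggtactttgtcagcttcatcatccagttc
Agtr1a A_51_P236439: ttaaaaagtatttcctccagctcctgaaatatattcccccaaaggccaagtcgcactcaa
Mas1 A_51_P152623: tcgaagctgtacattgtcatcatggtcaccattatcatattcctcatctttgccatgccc
The Ace probe lies at chr11:105802147-105804133 on the plus strand, a span of 1987 bases for 60 letters, so it crosses at least 1 exon junction. The Agtr1a probe lies at chr13:30389344-30389403 on the plus strand and the Mas1 probe at chr17:12684741-12684800 on the minus strand. The array also carries a Ren2 probe, whose 60 letters were placed at chr1:135187713-135187774, next to the shared renin probe and over 62 bases. The build places it beside Ren1, so Ren1 and Ren2 transcripts were not told apart with certainty by these probes, and the renin values below are for renin transcripts.

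Renin rose, Ace, Agtr1a, Mas1 and Enpep fell, and Agt, Cma1 and Atp6ap2 did not pass the test. Of the 15 probes, 12 (for 8 genes) gave a signal above background in all 3 kidneys of a group and were tested. Among these 12, 2 rose (both of Ren1) and 7 fell (2 of Ace, 2 of Agtr1a, 2 of Mas1 and the single Enpep probe) at an adjusted p under 0.05 in limma. Over all 29093 probes tested, 30.2% passed, 15.3% higher and 14.9% lower. The median log2 change was -0.90 over the 12 member probes and -0.02 over all tested probes. Of the 12 member probes, 9 had ligated and contralateral values that did not overlap, against 52.5% of all tested probes. With the pairing of kidneys left out of the fit, 5 of the 12 member probes passed instead of 9, namely both Ren1 probes, both Mas1 probes and Ace A_52_P68028. Without mouse 495 or without mouse 485, limma called 0 of all probes, although 7230 and 7457 had an unadjusted p under 0.05, with 9 and 8 of the member probes among them. Without mouse 512, 13 member probes could be tested, Agtr1b being the added one, and 11 passed, Agtr1b included. Over all 29992 probes tested in that fit 15960 passed, so calls were more frequent over the whole array as well.

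**Figure D1:**
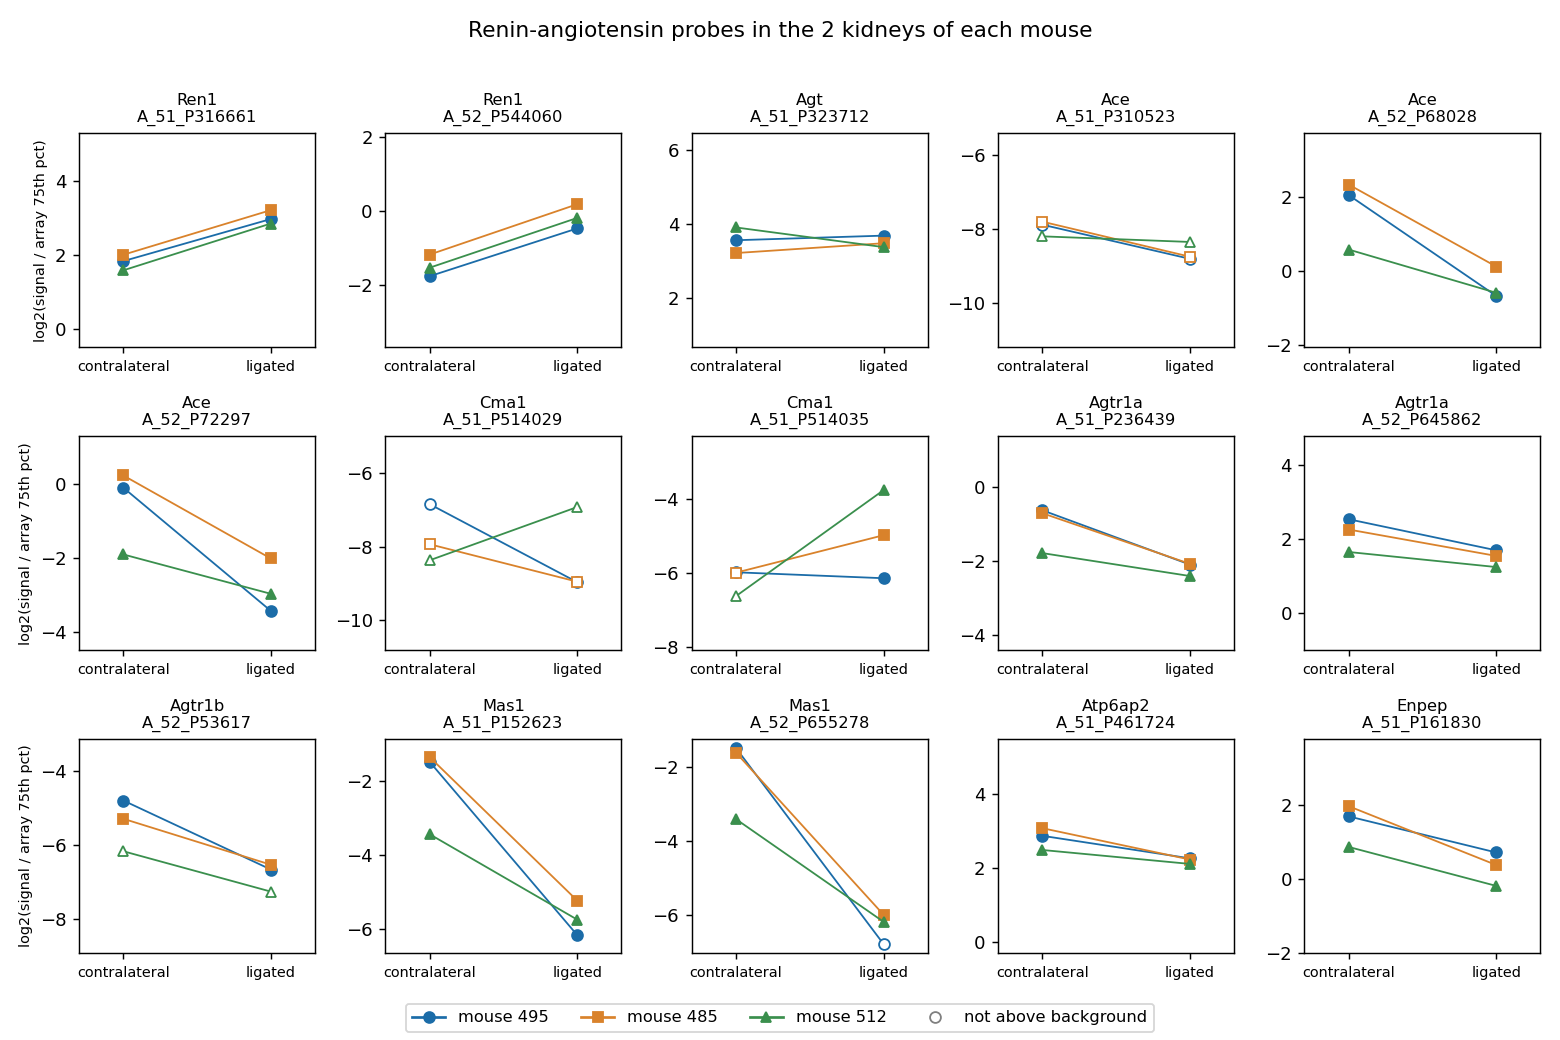
Signal of each of the 15 probes in both kidneys of the 3 mice, as log2 of the processed signal over the array's 75th percentile; lines join the kidneys of a mouse, open symbols were not above background, and every panel spans the same number of log2 units. The Ren1 lines rise in parallel, the Mas1 and Ace lines fall most, and the contralateral kidney of mouse 512 sits below the other contralateral kidneys for Ace, Agtr1a, Mas1 and Enpep.

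Ren1 encodes the enzyme that starts the cascade. The processed signal of the shared renin probe A_51_P316661 came to 2639, 2692 and 3309 in contralateral kidneys, and 10673, 13266 and 7690.0 in ligated kidneys, of mice 495, 485 and 512, an order kept throughout. As a percentage of each array's 75th percentile, which puts the arrays on one scale, these were 356%, 401% and 299% in contralateral kidneys and 784%, 926% and 720.3% in ligated ones. Every ligated kidney lay above every contralateral one. The rise was 2.30-fold (log2 change 1.20 ± 0.14 SE, n = 3 mice, adjusted p = 0.0230 in limma).

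The Ren1 probe A_52_P544060 gave the same picture at another part of the transcript. Its scaled signal was 29.3%, 44.0% and 34.4% in contralateral kidneys and 71.8%, 113% and 87.4% in the ligated ones, again without overlap. It rose 2.52-fold (1.33 ± 0.13, adjusted p = 0.0222). The 3 mice hardly differed in this rise. Differences within a pair were 1.14, 1.21 and 1.27 for the shared probe and 1.29, 1.36 and 1.35 for the other in mice 495, 485 and 512. Both probes kept their call with every scaling tried, with changes between 0.90 and 1.63.

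Agt encodes angiotensinogen, the substrate of renin, which the proximal tubule makes as well as the liver. Its probe A_51_P323712 had processed signals of 8736, 6220 and 16542 in contralateral kidneys and 17492, 15957 and 11059 in the ligated ones. After scaling these came to 1178%, 927% and 1497% against 1284%, 1114% and 1036%, and the groups overlapped. The log2 change was -0.05 ± 0.22 (adjusted p = 0.87 in limma), with a 95% interval from -0.64 to 0.55. Mice 495 and 485 stood at 0.12 and 0.27 and mouse 512 at -0.53. The sign of this change depended on the scaling, being -0.35 with centring on the median, 0.25 with centring on the spike-in spots and 0.47 with quantile normalization, none of them past the threshold.

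Ace encodes angiotensin-converting enzyme and was lower in the ligated kidney by both probes that gave signal. The processed signal of A_52_P68028 (chr11:105805174-105805233, plus strand) was 3085, 3401 and 1656 in contralateral kidneys and 856, 1561 and 711 in the ligated ones. Scaled, the contralateral kidneys stood at 416%, 507% and 150%, and the ligated ones at 62.8%, 109% and 66.6%. The groups did not overlap, but the contralateral kidney of mouse 512 came close to the ligated kidney of mouse 485. The fall was 4.11-fold (-2.04 ± 0.35, adjusted p = 0.0303 in limma).

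The junction probe A_52_P72297 fell 4.64-fold (-2.21 ± 0.48, adjusted p = 0.0394), from 94.0%, 118% and 26.9% to 9.32%, 24.9% and 12.8%. Its call was lost without the mouse pairing (adjusted p = 0.0508) and with no filter on dim probes (0.0570). The third Ace probe, A_51_P310523, is annotated to a single older cDNA sequence and not to the RefSeq transcripts. It was above background on none of the 6 arrays, with processed signals between 3.00 and 3.76, and says nothing about Ace. The labels do not settle whether whole tissue or primary cells were extracted, and in either, fewer cells of a type and less RNA per cell cannot be told apart.

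Proximal tubule markers moved with Ace. Of 10 such markers 8 fell and 0 rose, against 14.9% and 15.3% of all tested probes, with a median log2 change of -2.25. Their summed scaled signal (in units of the array's 75th percentile) ran from 283 to 1370 in contralateral kidneys and from 127 to 207 in ligated ones. The lowest contralateral sum was that of mouse 512. With no filter on dim probes 4 of the 10 passed. Slc22a8 and Slc22a6, organic anion transporters, fell by 4.10 and 3.60 and Slc13a3, a dicarboxylate transporter, by 3.13. With no filter Slc22a8 and Slc22a6 did not pass (adjusted p = 0.0596 and 0.0563 in limma). Endothelial cells also carry this enzyme. Of 9 endothelial markers 5 rose and 0 fell (median 0.91), led by Cdh5 (1.31 ± 0.14), Eng (1.04 ± 0.17) and Tie1 (0.97 ± 0.19), and their summed signal was 11.7 to 18.2 in contralateral and 18.3 to 22.8 in ligated kidneys. With arrays centred on the spike-in spots, or with no filter on dim probes, 1 endothelial marker rose, and with centring on the median 3 did. The part of either cell type in the fall of Ace was not tested.

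Cma1 encodes a mast cell chymase, and its probes lay near the limit of detection. A_51_P514035 (chr14:54895688-54895747, minus strand) had processed signals of 11.7, 10.54 and 11.2 in contralateral kidneys, above background in none, and 19.3, 45.4 and 78.7 in the ligated ones, above background in all 3. The scaled difference was -0.16, 1.01 and 2.87 in these mice. The mean change of 1.24 ± 0.63 did not pass (adjusted p = 0.19 in limma). The probe entered the fit only through the ligated kidneys, and the contralateral values it is set against were all undetected, so no direction is read from this change. It was 0.00 with normexp background correction and 1.54 on the spike-in scale (adjusted p = 0.0496). The other probe, A_51_P514029, was above background on no array, with its highest processed signal, 8.74, in the ligated kidney of mouse 512.

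Other mast cell genes were examined beside it. Of 9 mast cell markers 4 could be tested, and 2 rose and 0 fell: Hdc, the histamine-forming enzyme, by 1.94 ± 0.25 and Kit, the stem cell factor receptor, by 1.33 ± 0.29. With no filter Kit did not pass (adjusted p = 0.0624 in limma). The other tested markers, Mcpt4 and Gata2, stood at 0.27 ± 0.46 and 0.06 ± 0.27 and did not pass. Their second probes, at 1.77 and -0.09, did not pass either. Fcer1a, which was not tested, stood at -0.44. The granule carboxypeptidase gene Cpa3, singled out after its values were seen, gave a processed signal of 33.1 in the ligated kidney of mouse 512, above background, and 2.54 to 3.13 on the other arrays, above background on none. Tpsb2, a mast cell tryptase also singled out afterwards, was above background on that array alone (14.4). Ms4a2 and Tpsab1 were above background on no array. The summed signal of the 4 tested markers was 1.16 to 1.44 in contralateral and 1.57 to 2.54 in ligated kidneys. Gata2 and Kit made up most of this sum, with mean scaled log2 signals of -0.14 and -1.72 in contralateral kidneys. Hdc stood at -4.05 and Mcpt4 at -5.63 there, so the sum says little about these. The part of the mast cell markers in the Cma1 values was not tested.

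**Figure D2:**
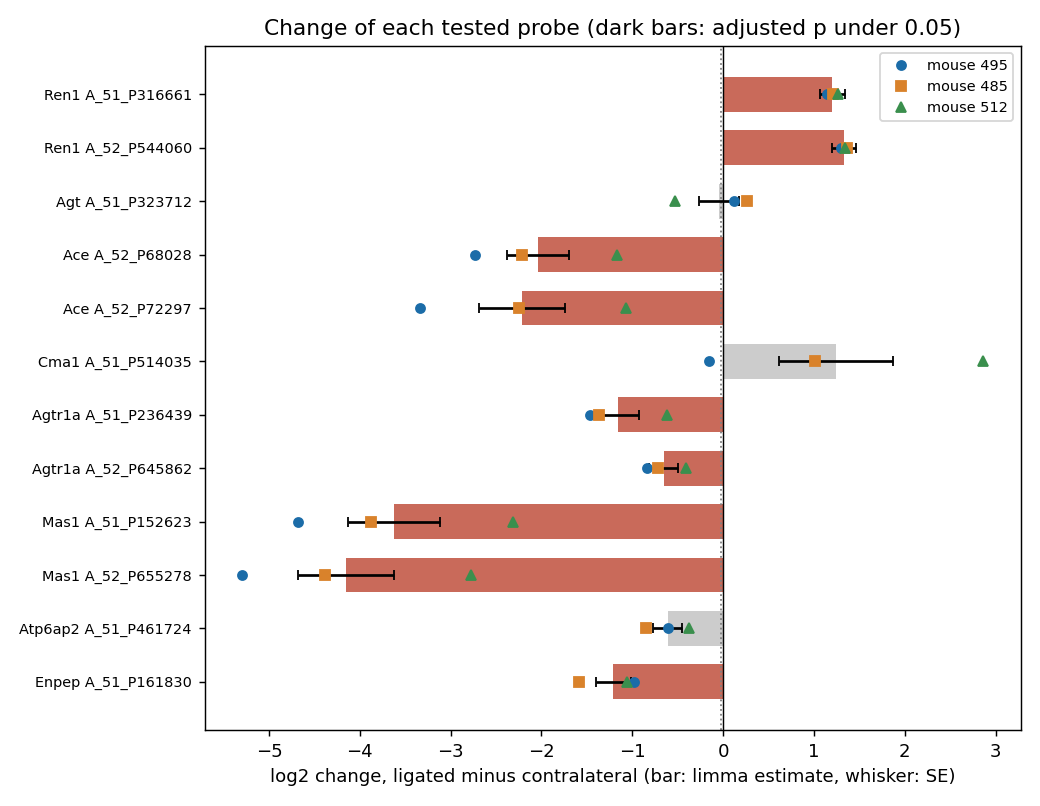
Log2 change of the 12 tested probes, ligated minus contralateral, with its standard error, and the difference within each of the 3 mice as symbols; red bars passed an adjusted p of 0.05 in limma and the dotted line is the median of all tested probes, -0.02. The 3 mice coincide for Ren1 and spread widely for Ace, Mas1 and Cma1.

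Agtr1a encodes the main AT1 receptor of rodents, found on vascular smooth muscle, mesangial cells and tubules. The scaled signal of A_51_P236439 was 64.8%, 61.3% and 29.0% in contralateral kidneys and 23.4%, 23.7% and 18.9% in the ligated ones, without overlap. It fell 2.22-fold (-1.15 ± 0.23, adjusted p = 0.0355 in limma). The probe A_52_P645862, which lies 3′ of it at chr13:30390234-30390293, had scaled signals of 575%, 474% and 311% against 321%, 289% and 235%, with overlap between the groups. Its fall was 1.57-fold (-0.65 ± 0.16, adjusted p = 0.0489).

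The Agtr1a calls were near the threshold and depended on the scale and the filter. With no filter on dim probes neither A_51_P236439 nor A_52_P645862 passed (adjusted p = 0.0569 and 0.0903 in limma), and without the mouse pairing neither did (0.0517 and 0.108). A_52_P645862 also missed with quantile normalization (0.101) and normexp (0.0552). Unscaled, the processed signal of A_52_P645862 was no lower in the ligated kidneys of mice 495 and 485 (4374 against 4264, and 4142 against 3183), and it was lower in mouse 512 (2505 against 3439). On the spike-in scale the changes of the 2 probes were -0.85 and -0.35, and neither passed (adjusted p = 0.19 and 0.63). Markers of mesangial and vascular smooth muscle cells did not fall with it. Of 8 such markers 4 rose and 0 fell (median 1.14), among them Pdgfrb (2.23 ± 0.35), Des (2.19 ± 0.26) and Mcam (1.54 ± 0.27), and their summed signal was 14.6 to 30.2 in contralateral and 34.6 to 53.1 in ligated kidneys. The contractile smooth muscle genes Myh11, Acta2 and Cnn1 stood at 0.03, 0.31 and 0.77 and did not pass. Itga8, at 1.09, did not pass either. Other tested Acta2 probes stood between 0.18 and 1.13, and none passed. Proximal tubule markers fell, as given above, and the part of either group in the Agtr1a values was not tested.

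Agtr1b encodes the second rodent AT1 receptor. Its probe A_52_P53617 (chr3:20506917-20506976, minus strand) was above background on 2 of 3 arrays in each group and was not tested. Its processed signals were 26.9, 17.3 and 15.5 in contralateral kidneys and 13.5, 15.6 and 7.02 in the ligated ones. Both kidneys of mouse 512 were not above background. The scaled difference was -1.87 in mouse 495 and -1.24 in mouse 485, where both kidneys gave signal.

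Mas1, the gene of the receptor of the counterbalancing arm, showed the largest change of the 9 genes. The processed signal of A_51_P152623 was 265, 262 and 102 in contralateral kidneys and 18.9, 38.0 and 19.8 in the ligated ones. Scaled, it went from 35.7%, 39.0% and 9.19% to 1.39%, 2.65% and 1.86%. All ligated kidneys lay below all contralateral ones. The fall was 12.3-fold (-3.62 ± 0.50, adjusted p = 0.0258 in limma), with differences of -4.68, -3.88 and -2.31 in the 3 mice.

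The probe A_52_P655278 (chr17:12684382-12684441, minus strand) fell 17.8-fold (-4.15 ± 0.53, adjusted p = 0.0244), and its ligated signal was above background in mice 485 and 512 but not in mouse 495, so the size of its fall rests in part on an undetected signal. Its differences were -5.30, -4.38 and -2.78. With normexp, which compresses dim signals, the changes of the 2 probes were -2.13 and -2.26 and both still passed. Proximal tubule markers had a median change of -2.25 over the same kidneys, and of -1.12 in mouse 512, and their part in the Mas1 values was not tested.

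Atp6ap2 encodes the (pro)renin receptor, which is also an accessory subunit of the vacuolar proton pump. Its probe A_51_P461724 (chrX:11773457-11773516, plus strand) had scaled signals of 732%, 845% and 561% in contralateral kidneys and 480%, 469% and 432% in the ligated ones. The groups did not overlap. The change of -0.61 ± 0.16 missed the threshold (adjusted p = 0.0565 in limma). It passed when the slide took the place of the mouse as the block (0.0343), with centring on the median (0.0267), with the filter on all 6 arrays (0.0476) and with an intensity trend (0.0403). On the spike-in scale it was -0.31. Unscaled, the processed signal was higher in the ligated kidneys of mice 495 and 485 (6536 against 5429, and 6725 against 5670). It was lower in mouse 512 (4615 against 6204).

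Enpep encodes glutamyl aminopeptidase, which removes the first residue of angiotensin II and sits on the proximal tubule brush border and on podocytes. The scaled signal of its probe A_51_P161830 (chr3:129262014-129262073, minus strand) was 322%, 390.0% and 182% in contralateral kidneys and 164%, 129% and 87.5% in the ligated ones, without overlap. It fell 2.31-fold (-1.21 ± 0.19, adjusted p = 0.0284 in limma). The differences were -0.98, -1.59 and -1.05. Unscaled, the processed signal was 2388, 2618 and 2007 in contralateral kidneys and 2230, 1855 and 934 in the ligated ones. The call was lost without the mouse pairing (adjusted p = 0.0551) and on the spike-in scale (-0.91, adjusted p = 0.18). Podocyte markers did not fall with Enpep: of 8, 5 rose and 0 fell (median 1.22), led by Wt1 (1.90 ± 0.35), Synpo (1.42 ± 0.25) and Ptpro (1.33 ± 0.15), and their summed signal was 3.43 to 4.46 in contralateral and 8.28 to 9.22 in ligated kidneys. A second tested Synpo probe stood at -0.50 and did not pass. The part of podocytes and of proximal tubule in the Enpep values was not tested.

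The contralateral kidney of mouse 512 stood apart from the other contralateral kidneys, and the falling genes show it. For all 7 probes that fell, it lay below both other contralateral kidneys, as it did for 10 of the 12 tested member probes and for 43.4% of all tested probes. Against the mean of the other contralateral kidneys it was -2.02 and -1.86 for the Mas1 probes, -1.62 and -1.97 for the Ace probes, -1.12 and -0.75 for the Agtr1a probes and -0.97 for Enpep. For Ren1 the same distances were -0.34 and -0.06, and for Agt 0.52. Of the 7 probes that fell, 6 had their smallest difference in mouse 512, the exception being Enpep. The share among all probes that fell was computed for neither count, and the 43.4% covers probes of any direction. These counts therefore do not set the member probes apart from other falling probes. Proximal tubule markers also had their smallest median difference (-1.12) and their lowest contralateral sum in mouse 512. With the contralateral kidney of mouse 512 left out and the pairing dropped, 13 member probes could be tested, Agtr1b being the added one. Of these 11 passed, Agtr1b included, and of all 29337 probes tested in that fit 16109 passed. The changes were -2.58 and -2.87 for Ace, -4.30 and -4.77 for Mas1 and 1.09 and 1.31 for Ren1. Mice 495 and 485 were hybridised on one slide and mouse 512 on the other, so mouse and slide cannot be told apart for this kidney.

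**Figure D3:**
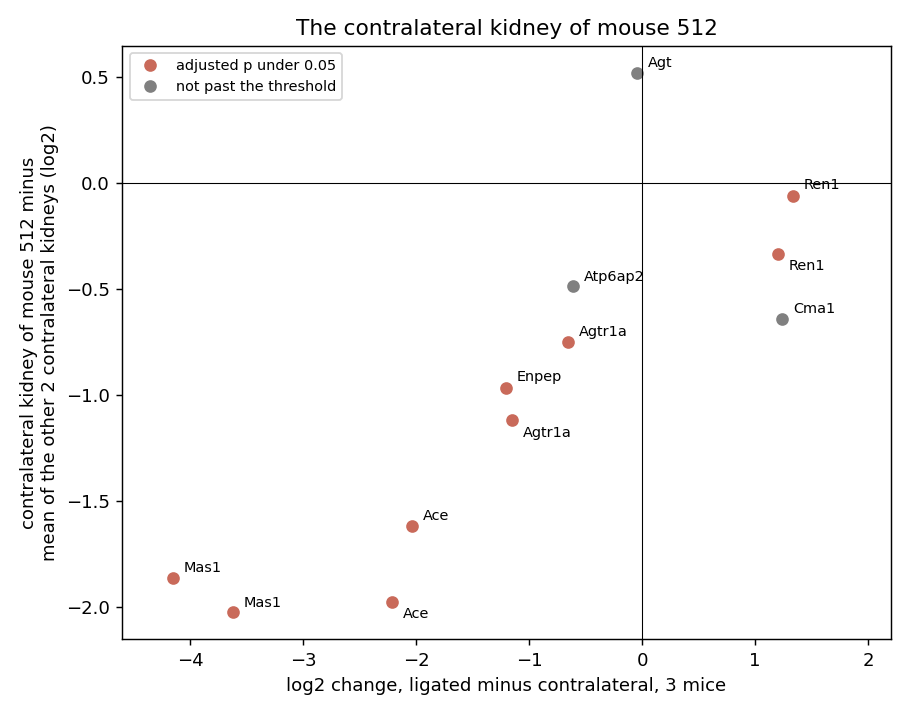
For the 12 tested probes, the log2 change between ligated and contralateral kidneys (horizontal) against the position of the contralateral kidney of mouse 512 relative to the mean of the other 2 contralateral kidneys (vertical, log2). Mas1 and Ace lie lowest on both axes, at -1.62 to -2.02 vertically; the Ren1 probes lie near 0 vertically, and the 2 axes share the same contralateral arrays.

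The rest of the angiotensin system was described by a list of 18 further peptidases and receptors, of which 16 had a probe matched by name and 13 were tested through the brightest probe of the gene. Of these, 1 rose and 2 fell, with a median log2 change of -0.15. The rise was that of the probe named Ren2, for the tandem renin gene, at 2.16-fold (1.11 ± 0.14, adjusted p = 0.0245 in limma). Its differences were 0.97, 1.17 and 1.19 in mice 495, 485 and 512. The build places this probe beside Ren1, as given above, so its rise is not told apart with certainty from that of Ren1. Ctsa, the carboxypeptidase cathepsin A, fell by 0.72 ± 0.15 (adjusted p = 0.0389), and its other probes stood at -0.54 and -0.13 and did not pass. Nln, the metallopeptidase neurolysin, fell by 0.63 ± 0.14 (adjusted p = 0.0420), and its second probe had the same change. With no filter on dim probes neither Ctsa nor Nln passed (0.0730 and 0.0832).

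The probe of Agtr2, the AT2 receptor, was above background on no array. Klk1, tissue kallikrein of the distal nephron, and Anpep, aminopeptidase N of the brush border, singled out after their values were seen, split by mouse. Klk1 stood at -4.36, -4.24 and 0.56 and Anpep at -2.81, -2.58 and 0.01 in mice 495, 485 and 512, so that neither mean passed (adjusted p = 0.13 and 0.0973).

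Receptor regulators and the mineralocorticoid arm held 8 genes, of which 7 were tested and 1 fell and 0 rose (median -0.60). Hsd11b2, which protects the mineralocorticoid receptor of the collecting duct from cortisol-like steroids, fell 2.65-fold (-1.41 ± 0.21, adjusted p = 0.0273 in limma). The count of genes that fell was 4 with centring on the median and 0 on the spike-in scale. Agtrap, an AT1 receptor-associated protein that promotes receptor internalisation, had 4 probes. Its brightest stood at -0.70 ± 0.23 and did not pass (adjusted p = 0.0816), while the other 3, looked at afterwards, fell by 1.496, 1.16 and 1.36 (adjusted p = 0.0222, 0.0301 and 0.0245).

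Of 16 genes tied to renin cells 15 were tested, and 3 rose and 2 fell (median 0.38), a share near the 30.2% of all tested probes that passed. Ptger4, a prostaglandin E2 receptor, rose by 2.47 ± 0.52 (adjusted p = 0.0385 in limma, and 0.0555 with no filter), and a second probe was too dim to test. Akr1b7, an aldo-keto reductase expressed with renin in juxtaglomerular cells, rose by 1.92 ± 0.27 (adjusted p = 0.0262). Vdr, the vitamin D receptor, fell by 1.48 ± 0.24 (adjusted p = 0.0296). The other called genes were named after their values were seen. Rbpj rose by 1.31 ± 0.22 and Nr1h3 fell by 1.05 ± 0.17 (adjusted p = 0.0301 and 0.0284 in limma). The brighter Adrb1 probe stood at -0.43 and did not pass, while the other fell by 0.93 (adjusted p = 0.0395). On the spike-in scale 5 of these genes rose and 0 fell.

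The kinin system, whose peptides Ace also degrades, had 8 genes, 6 of them tested, with 1 rise and 0 falls (median 0.25). The rise was that of Cpm, a membrane carboxypeptidase (1.501 ± 0.17, adjusted p = 0.0232 in limma). Of 12 genes known to respond to angiotensin II, 8 rose and 1 fell (median 2.48), against 15.3% and 14.9% of all tested probes. The largest changes were those of Col1a1, Ccl2 and Col3a1 (3.86, 3.82 and 3.75). Whether angiotensin II had a part in them was not tested. Other probes of Col1a1 stood at 3.55 and 3.32 and a further Col3a1 probe at 3.04, and these did not pass (adjusted p = 0.0560, 0.0511 and 0.0530). With no filter on dim probes 5 of the 12 genes rose, and Col1a1, Ccl2 and Col3a1 were not among them (adjusted p = 0.0628, 0.0682 and 0.0566 in limma). The summed signal of this list was 71.9 to 380 in contralateral kidneys, highest in mouse 512, and 337 to 429 in ligated ones. The 1 that fell was Nox4, the oxidase of tubular cells (-1.75 ± 0.29), named after its value was seen. Macrophage markers had 7 of 8 members higher and 0 lower (median 3.10), led by Mrc1, Adgre1 and Lyz2 (3.61, 3.42 and 3.24), with summed signals of 16.3 to 85.2 in contralateral and 195 to 221 in ligated kidneys. The highest contralateral sum was that of mouse 512. Their part in the changes of the other lists was not tested.

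**Figure D4:**
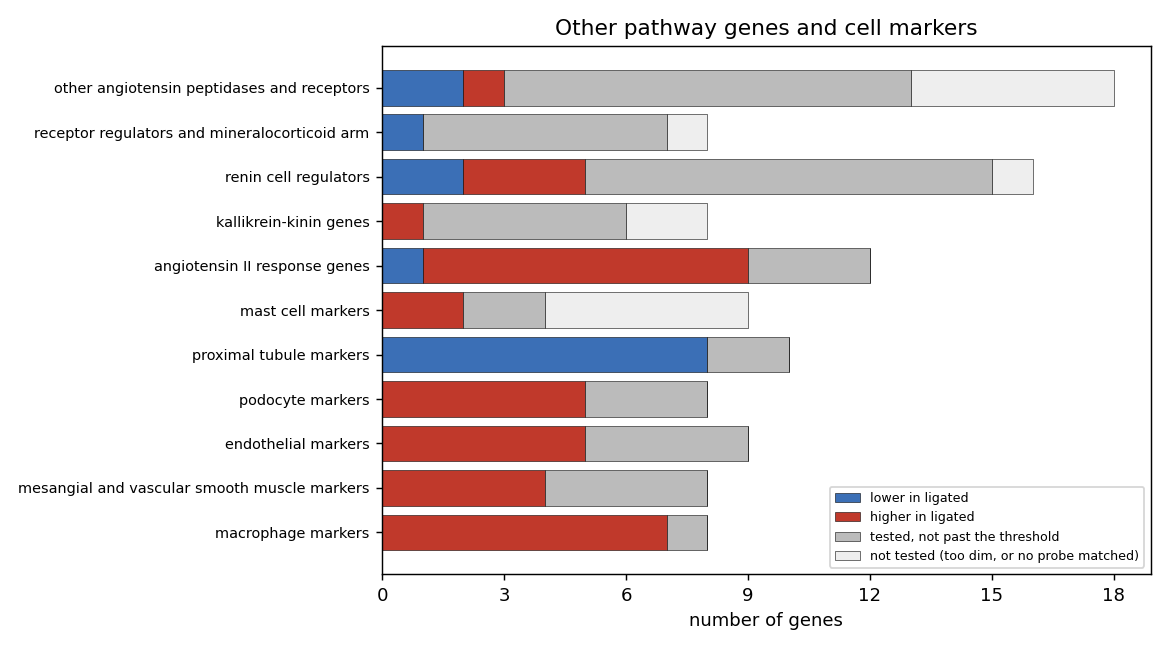
Number of genes in each further list that fell, rose, were tested without passing an adjusted p of 0.05, or were not tested. In the angiotensin list 10 of 13 tested genes did not pass, whereas 8 of 10 proximal tubule markers fell and 7 of 8 macrophage markers rose. Over all tested probes 15.3% rose and 14.9% fell.

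The genes whose profile over the 6 arrays was most like that of each member were taken from 13802 named genes, by Pearson correlation with the member's brightest tested probe. They describe these 6 arrays, which share the difference between kidneys, and the highest of so many values is high by selection. Ren1 was followed most closely by Ren2 (r = 0.998) and Ing1 (0.989), Agt by Osbpl5 (0.988) and Car15 (0.986), and Ace by Ces2f and Slc2a9 (0.999 each). The Ren1 probe used here is the shared one, annotated to Ren2 transcripts as well. Its correlation with the Ren2 probe therefore does not describe a separate gene with a like profile. Agtr1a was followed by Dock9 (0.998) and Fam160a1 (0.995), Mas1 by Ppif and Mfsd4b5 (0.999 each), and Enpep by Alkbh8 (0.999) and Slco3a1 (0.998). Those of Atp6ap2 were Nxt2 (1.00) and Wdr45 (0.999), and those of Cma1 Lhb (0.987) and Olfr978 (0.980).

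**Figure D5:**
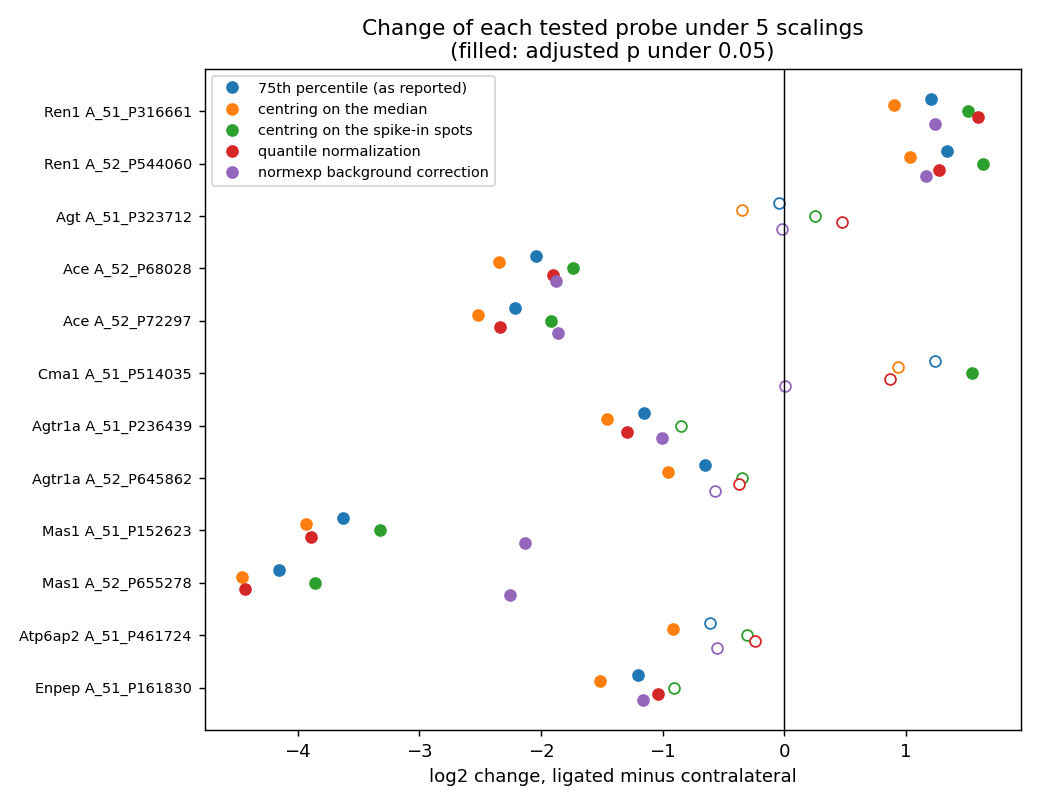
Log2 change of the 12 tested probes under 5 ways of scaling the arrays; filled symbols passed an adjusted p of 0.05 in limma. Ren1 rose and Ace and Mas1 fell under each of the 5, with Mas1 at -2.13 and -2.26 under normexp, while Agt changed sign and the Agtr1a, Enpep, Atp6ap2 and Cma1 calls depended on the scale.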

How the data were processed

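Cy3-labelled cRNA from 6 kidneys was read on single-colour Agilent arrays. The authors deposited scanner tables whose processed signal is a linear intensity, background-subtracted and detrended within each array, per the file headers, beside raw spot and background intensities. The headers give 10.5.1.1 as the version of the grid placement step, and the submitters' processing notes give Feature Extraction 9.1. The deposited value table is a ratio of that signal to the array's median. Flags in the deposited files (other values) are 0 or 1.

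Control spots and outlier spots (43 to 79 of 43379 per array) were left out, 0 spots were saturated, and 24 probes with an outlier were dropped. Log2 signals were centred on each array's 75th percentile (671 to 1433), and between 65.7% and 74.7% of spots were well above background. In mice 495, 485 and 512 this percentile was 741, 671 and 1105 in contralateral kidneys and 1362, 1433 and 1068 in ligated ones. Scaling thus lowered ligated against contralateral values in mice 495 and 485 but not in mouse 512. The cause of the brighter arrays was not tested. A probe entered the fit where every kidney of a group gave signal over background. It was fitted with limma 3.58.1 in R 4.3.3 (mouse as a fixed block, eBayes, two-sided, Benjamini-Hochberg over all probes tested). Changes are given ± SE. The fit was tested on simulated data with the same variance for every probe and few changed probes. The arrays differ from this in both respects, so the test covers the working of the fit and not the reliability of the calls. Kidneys of a mouse share an animal, and their deviations from group means correlated (r = 0.202, 0.474 and 0.280 in mice 495, 485 and 512).

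Members and lists were chosen with earlier results of these data known. Named were all member probes, from each list the 3 called genes with the largest change (with none called, the smallest p), and the 2 genes most correlated with each member. List genes were matched by the name in the files or RefSeq accession (24375 probes). The number of arrays limits the precision.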

Additional observations from a re-analysis of the deposited data

How the results depend on the processing

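Under the 10 alternatives that keep all arrays, both Ren1 probes, both Mas1 probes and Ace A_52_P68028 kept direction and call wherever they were tested. Without the replicate block, 5 member probes passed, 3 of them lower. Centring on the median gave 9017 lower probes and 23 lower list genes (14 as reported), and the deposited values gave 9013 and 23. The share of calls that were higher was 50.7% as reported, 28.7% with centring on the median, 78.2% with the spike-in spots, 38.5% with normexp, 61.9% with no filter and 40.2% with the filter on all 6 arrays, and the median change of all probes moved from -0.02 to -0.32 and 0.28 with the first 2 of these. The spike-in scale gave 4730 calls, 1032 lower, with 4 member probes lower. Normexp gave 2582 higher probes. No filter gave 4165 calls (2577 higher, 1588 lower) and 8 lower list genes. Leaving out the contralateral kidney of mouse 512, without the block, was chosen after seeing the data and gave 16109 calls (7474 higher, 8635 lower) and 24 lower list genes. Agt changed sign at 0.25 on the spike-in scale, 0.47 with quantile normalization and 0.13 without that kidney. The cause was not tested.

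Leaving out each mouse in turn gave 0 to 15960 calls over all probes (0 to 7789 higher, 0 to 8171 lower), 0 to 11 among the 12 or 13 member probes tested (0 to 2 higher, 0 to 9 lower), 0 to 41 higher and 0 to 25 lower list genes, and Agt between -0.20 and 0.19. Signals near background limit Cma1, Agtr1b and the ligated values of Mas1.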
